A study of Homo sapiens with 8 samples.

Results

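The transcripts of 10 cytokine genes were followed in Reh cells: EBI3, IL27, IL12A, IL12B, IL23A, IL6, LIF, IL10, IL13 and IL15. Every probe set of the array that was annotated to exactly 1 of these symbols was taken, which gave 14 probe sets of the 54675 in the deposited table. IL23A had 4 of them, IL15 had 2 and each other gene had 1. Reh is an established human line of B cell precursors that came from an acute lymphoblastic leukaemia. Its RNA was measured on Affymetrix U133 Plus 2.0 arrays after transfection, with 2 arrays in each of 4 groups, numbered 1 and 3 and described as biological duplicates. The groups were IRF5-4D together with IKKβ(EE) (called the combination here), IRF5-4D alone, IKKβ(EE) alone, and control constructs (mock). IRF5-4D is a constitutively active form of the transcription factor IRF5, and IKKβ(EE) is a constitutively active form of the kinase that switches on NF-κB. The labels give neither the share of cells that took up a construct nor the time to harvest, so a change in more cells and a larger change per cell cannot be told apart.

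Of these genes 5 encode chains that pair with one another, so that a chain can be part of several cytokines. EBI3 pairs with IL27 (p28) to form IL-27 and with IL12A (p35) to form IL-35, while IL12B (p40) pairs with IL12A in IL-12 and with IL23A (p19) in IL-23. IL6 and LIF signal through the common receptor chain gp130, the product of IL6ST. IL15 supports natural killer and memory T cells and is shown to them on its receptor chain IL15RA, IL10 is an anti-inflammatory cytokine, and IL13 is a cytokine of allergic responses. EBI3 is named for its induction in B cells by Epstein-Barr virus, and it is known as a target of NF-κB.

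EBI3 was high in both groups that received IKKβ(EE) and near its mock level with IRF5-4D alone. On the log2 scale its probe set read 10.99 and 9.92 in the combination, 4.38 and 4.40 with IRF5-4D, 7.84 and 7.41 with IKKβ(EE), and 3.86 and 4.62 in mock cells. The combination and IKKβ(EE) arrays did not overlap with each other or with the other groups, whereas the IRF5-4D arrays lay between the mock arrays. The difference between IKKβ(EE) and mock was 3.38 (SE 0.34), a 10.4-fold rise with a limma adjusted p of 0.00369. With IRF5-4D the difference from mock was 0.15 (SE 0.34, adjusted p = 0.995), with a 95% interval from -0.61 to 0.92. The combination was 6.22 (SE 0.34) above mock, or 74.5-fold (adjusted p = 2.46e-05). The mock and IRF5-4D arrays read between the lower quartile (3.67 to 3.73) and the median (5.1 to 5.14) of the arrays, a level not shown to lie above background. Folds of EBI3 against either group are therefore folds of array signal, and the fold in transcript may be larger.

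The combination also exceeded each single construct for EBI3. It was 2.83 (SE 0.34), or 7.13-fold, above IKKβ(EE) (limma adjusted p = 0.0039) and 6.07 (SE 0.34), or 67.0-fold in array signal, above IRF5-4D (adjusted p = 0.000105). In order of level the groups were therefore the combination, IKKβ(EE), and then IRF5-4D and mock, which did not differ beyond their spread. Between the single constructs EBI3 was 3.23 lower with IRF5-4D than with IKKβ(EE) (log2 difference -3.23, SE 0.34, adjusted p = 0.00409). Within the arrays numbered 1 the combination was 3.16 above IKKβ(EE), and within those numbered 3 it was 2.51 above. Without IKKβ(EE) replicate 3 the step from IKKβ(EE) to the combination was 2.62 (adjusted p = 0.0541), and without IKKβ(EE) replicate 1 the rise of IKKβ(EE) over mock was 3.17 (adjusted p = 0.0637). The difference between the single constructs missed the threshold without IRF5-4D replicate 1 (-3.22, adjusted p = 0.0667), IRF5-4D replicate 3 (-3.24, adjusted p = 0.0617) or IKKβ(EE) replicate 1 (-3.02, adjusted p = 0.0603). The rise of the combination over mock passed without any 1 of the 8 arrays, with values from 5.68 to 6.76.

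**Figure D1:**
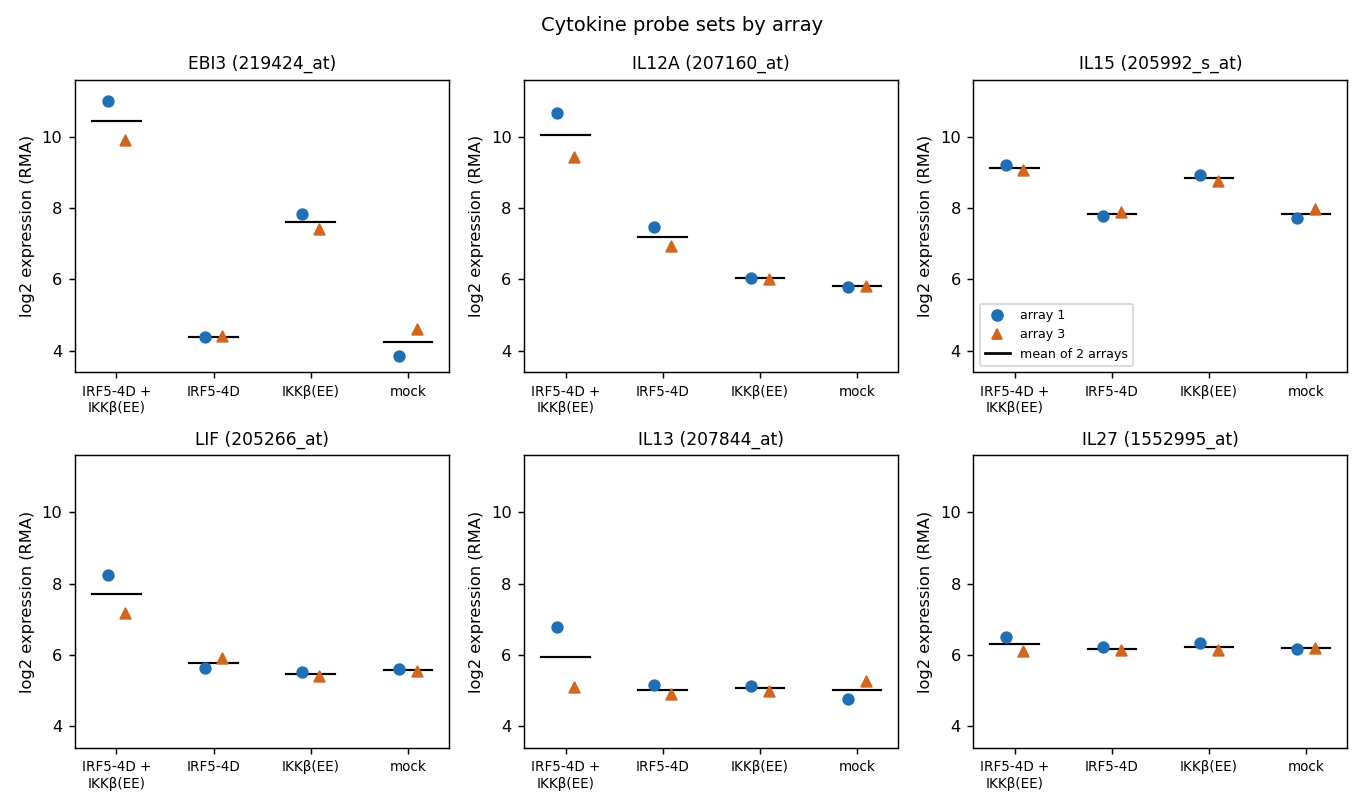
Log2 RMA expression on each array (vertical axis, same scale in all panels) for 1 probe set each of EBI3, IL12A, IL15, LIF, IL13 and IL27 in the 4 transfection groups. Circles are arrays numbered 1, triangles arrays numbered 3, and bars the mean of 2 arrays; EBI3 reads 10.99 and 9.92 in the combination against 3.86 and 4.62 in mock cells, while IL27 stays between 6.12 and 6.51.

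The 2 chains of IL-35, EBI3 and IL12A, were the members with the largest rises in the combination, and their promoters are shown for that reason. Each is the RefSeq sequence from 250 bases before to 50 bases after the annotated start in GRCh38.p14, on the plus strand, at chr19:4229273-4229572 for EBI3 and chr3:159988585-159988884 for IL12A. Capitals mark exact matches on either strand to the κB consensus (GGGRNWYYCC), an IRF-type motif (GAAA, any 2 bases, GAAA) or the AP-1 motif (TGANTCA). In these letters R is A or G, W is A or T, Y is C or T and N is any base.
EBI3: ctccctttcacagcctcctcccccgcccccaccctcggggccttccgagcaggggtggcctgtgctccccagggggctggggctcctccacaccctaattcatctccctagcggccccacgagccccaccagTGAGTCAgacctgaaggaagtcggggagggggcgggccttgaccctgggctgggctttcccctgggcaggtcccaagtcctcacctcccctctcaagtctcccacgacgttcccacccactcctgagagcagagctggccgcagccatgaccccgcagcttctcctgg
IL12A: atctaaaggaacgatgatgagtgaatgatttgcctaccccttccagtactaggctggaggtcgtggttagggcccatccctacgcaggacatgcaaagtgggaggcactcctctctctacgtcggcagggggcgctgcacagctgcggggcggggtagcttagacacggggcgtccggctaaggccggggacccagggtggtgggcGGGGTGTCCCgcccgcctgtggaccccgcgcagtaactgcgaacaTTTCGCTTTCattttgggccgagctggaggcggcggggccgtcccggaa
The EBI3 window held 1 match to the AP-1 motif, from base -118 to base -112 relative to the start, and none to the other 2. Its letters gggctttccc differ from the κB consensus at 1 base and were not counted as a match. The IL12A window held a κB match (GGGGTGTCCC, from -44 to -35) and an IRF-type match (TTTCGCTTTC, from 2 to 11), both matching on the minus strand, not overlapping, and given here in the letters of the plus strand. Of 35114 promoters of this length in the RefSeq table, 7.71% held the AP-1 motif, 5.91% the κB consensus, 3.57% the IRF-type motif and 0.168% both the κB consensus and the IRF-type motif. A κB match also stood in the promoters of IL23A (GGGGAATCCC, from -95 to -86) and IL6 (GGGATTTTCC, from -73 to -64). The AP-1 match of EBI3 (TGAGTCA) recurred in the promoter of IL23A, from -77 to -71, and in 1 of 3 promoters of IL10, from -69 to -63. A match describes the letters in this window and not binding by a factor.

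IL12A, the p35 chain, was highest in the combination. Its IRF5-4D arrays read above the mock arrays without passing the test, and its IKKβ(EE) arrays lay close to them. Its values were 10.68 and 9.42 in the combination, 7.46 and 6.94 with IRF5-4D, 6.05 and 6.02 with IKKβ(EE), and 5.78 and 5.82 in mock cells. No group overlapped with another, and the gap between IKKβ(EE) and mock was the smallest. Whether the mock level lay above background was not tested, so the folds below are folds of array signal. The combination was 4.25 (SE 0.33), or 19.0-fold, above mock (limma adjusted p = 0.000212), 4.02 (SE 0.33), or 16.2-fold, above IKKβ(EE) (adjusted p = 0.000427) and 2.85 (SE 0.33), or 7.22-fold, above IRF5-4D (adjusted p = 0.00496). The last of these read 2.59 with an adjusted p of 0.0798 without IRF5-4D replicate 3.

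With IRF5-4D alone IL12A read 1.40 (SE 0.33) above mock, which did not pass (limma adjusted p = 0.399, unadjusted p = 0.00227). The pooled SE holds the gap of 1.26 between the 2 combination arrays. Without combination replicate 1 or replicate 3 the value stayed at 1.40 and the adjusted p was 0.015 in either fit. With IKKβ(EE) alone IL12A read 0.23 (SE 0.33, adjusted p = 0.95), with a 95% interval from -0.52 to 0.99. Against IKKβ(EE) the IRF5-4D arrays were 1.17 higher (SE 0.33, adjusted p = 0.353), and that adjusted p became 0.0224 without either combination array.

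The remaining chains of this family did not pass in any contrast. IL27 (p28), the partner of EBI3 in IL-27, read 6.51 and 6.12 in the combination, 6.22 and 6.13 with IRF5-4D, 6.33 and 6.14 with IKKβ(EE), and 6.17 and 6.2 in mock cells. The groups overlapped throughout, and the difference between the combination and mock was 0.13 (SE 0.15), with a 95% interval of the fold from 0.865 to 1.38. IL12B (p40), the partner of IL12A in IL-12, read from 2.66 to 3.31 on all arrays, below the lower quartile of every array (3.67 to 3.73), and a level there is not shown to lie above background. Its values were 3.31 and 2.99 in the combination against 2.79 and 2.86 in mock cells, a difference of 0.33 (SE 0.15, adjusted p = 0.333). So of the 5 chains of the IL-12 family, the pair of IL-35 rose in the combination and the other 3 did not pass the test.

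IL23A (p19) was represented by 4 probe sets. The probe set 220054_at was the 1 whose target accession is a RefSeq transcript of IL23A, and it read 6.07 and 6.35 in the combination, 5.66 and 5.82 with IRF5-4D, 6.26 and 5.99 with IKKβ(EE), and 6.34 and 5.94 in mock cells. The IRF5-4D arrays were the lowest, at 0.40 (SE 0.17) below mock, which did not pass (log2 difference -0.40, limma adjusted p = 0.952, unadjusted p = 0.0462). The other 3 probe sets are assigned to IL23A by the platform annotation of 2016 but name target accessions that are not among its RefSeq transcripts, so what they measure is uncertain. They read between 2.93 and 4.49 on all arrays, and none passed. A further probe set that the annotation gives to IL23A together with a T cell receptor segment was left out by the rule. It read from 5.73 to 6.19 and did not pass against mock either.

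**Figure D2:**
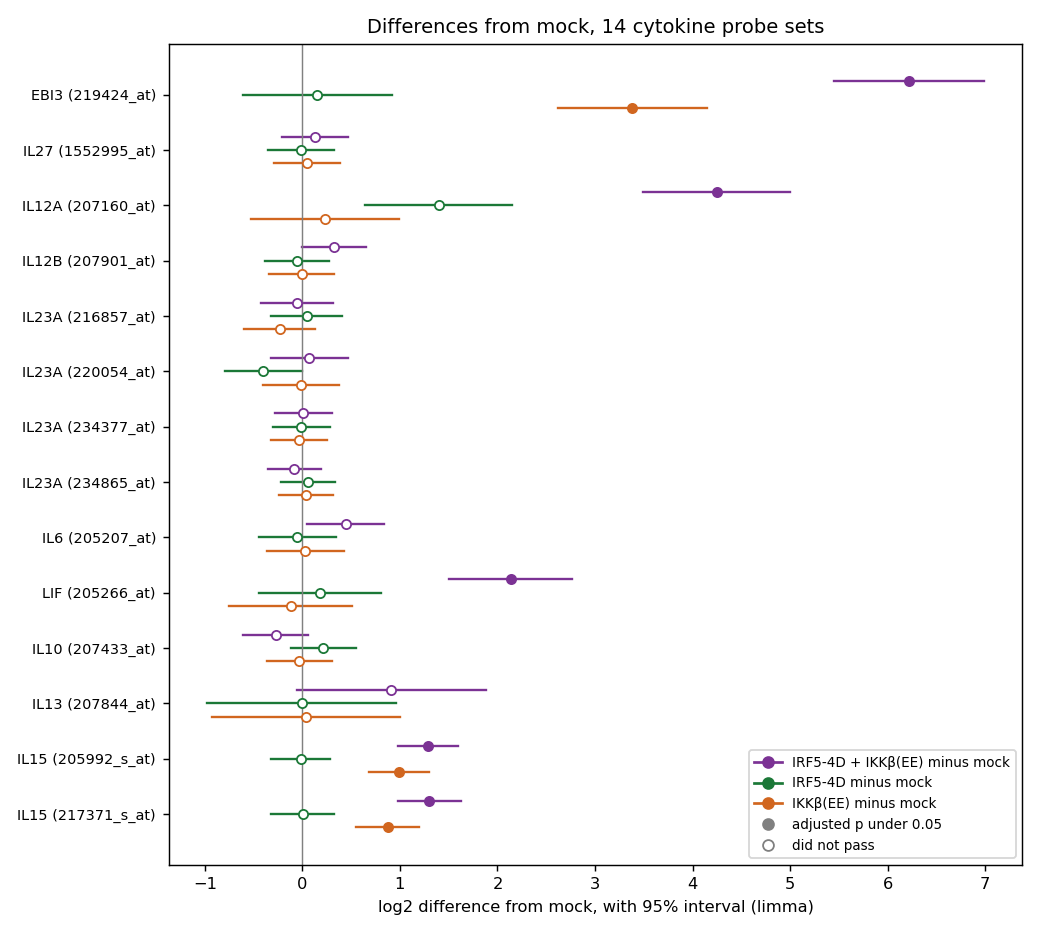
Log2 difference from mock (horizontal axis) with its 95% interval for all 14 probe sets, for the combination, IRF5-4D and IKKβ(EE); filled points passed an adjusted p of 0.05 in limma and open points did not. The points farthest right are EBI3 at 6.22 and IL12A at 4.25 in the combination and EBI3 at 3.38 with IKKβ(EE).

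LIF, a gp130 cytokine that keeps mouse embryonic stem cells undifferentiated, was higher in the combination than in the other 3 groups. It read 8.25 and 7.19 in the combination, 5.62 and 5.91 with IRF5-4D, 5.52 and 5.42 with IKKβ(EE), and 5.61 and 5.57 in mock cells. Both combination arrays lay above all others, and the arrays of IRF5-4D and mock did not differ beyond their spread. The mock level of LIF was not tested against background either, so its fold below is that of array signal. The combination exceeded mock by 2.14 (SE 0.28), or 4.39-fold (limma adjusted p = 0.00401), IRF5-4D by 1.95 (SE 0.28, adjusted p = 0.0129) and IKKβ(EE) by 2.26 (SE 0.28, adjusted p = 0.00468). Against mock LIF read 0.18 (95% interval -0.45 to 0.81) with IRF5-4D and -0.12 (95% interval -0.75 to 0.51) with IKKβ(EE), and neither passed. The difference from IRF5-4D was 1.81 (adjusted p = 0.155) without IRF5-4D replicate 1 and 2.10 (adjusted p = 0.095) without IRF5-4D replicate 3, and that from IKKβ(EE) was 2.21 (adjusted p = 0.0583) without IKKβ(EE) replicate 3.

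IL6, the founding member of the gp130 family and a textbook NF-κB target, stayed low. It read 4.11 and 4.05 in the combination, 3.71 and 3.47 with IRF5-4D, 3.92 and 3.41 with IKKβ(EE), and 3.73 and 3.55 in mock cells. The combination arrays were the 2 highest, 0.44 (SE 0.18) above mock, but the difference did not pass (limma adjusted p = 0.272). Its 95% interval of the fold ran from 1.03 to 1.79. With IKKβ(EE) alone the difference was 0.03 (SE 0.18).

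IL15 was higher in both groups with IKKβ(EE), on both probe sets annotated to it. The probe set 205992_s_at read 9.22 and 9.06 in the combination, 7.78 and 7.89 with IRF5-4D, 8.93 and 8.75 with IKKβ(EE), and 7.73 and 7.96 in mock cells. The probe set 217371_s_at read 7.34 and 7.30 in the combination, 6.0 and 6.04 with IRF5-4D, 7.01 and 6.77 with IKKβ(EE), and 5.86 and 6.18 in mock cells. The target accession of 217371_s_at is not among the RefSeq transcripts of IL15, so what it measures is uncertain. On both probe sets every array with IKKβ(EE) lay above every array without it, and the IRF5-4D arrays lay within the mock range.

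With IKKβ(EE) IL15 rose over mock by 0.99 (SE 0.14), or 1.99-fold, on 205992_s_at (limma adjusted p = 0.0196) and by 0.87 (SE 0.14), or 1.83-fold, on 217371_s_at (adjusted p = 0.0461). In the combination it rose by 1.29 (SE 0.14, adjusted p = 0.00113) and 1.3 (SE 0.14, adjusted p = 0.00143) over mock, and by 1.31 and 1.3 over IRF5-4D (adjusted p = 0.00317 and 0.00365). The step from IKKβ(EE) to the combination was 0.30 (SE 0.14, adjusted p = 0.485) on 205992_s_at and 0.43 (SE 0.14, adjusted p = 0.265) on 217371_s_at and did not pass. IRF5-4D alone read -0.02 and 0.004 against mock, with 95% intervals from -0.32 to 0.29 and from -0.32 to 0.33. Against IKKβ(EE) it was lower by 1.01 (log2 difference -1.01, adjusted p = 0.0126) and by 0.87 (log2 difference -0.87, adjusted p = 0.0337).

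The IL15 rise over mock in the combination passed on both probe sets in each of the 8 fits without 1 array, at 1.14 to 1.46. The rise with IKKβ(EE) alone was near the threshold. On 205992_s_at it passed in 2 of these 8 fits, those without a combination array, with adjusted p from 0.0263 to 0.246, and on 217371_s_at in 0 of 8, with adjusted p from 0.0602 to 0.487, at values of 0.71 to 1.11 over both. Against IRF5-4D the combination kept a value of 1.28 and 1.32 on 217371_s_at without IRF5-4D replicate 1 or 3 (adjusted p = 0.0563 and 0.0578). The difference between the single constructs missed the threshold on both probe sets without any 1 of the 4 arrays of those groups, with values from -1.10 to -0.75 and adjusted p of up to 0.347. On 217371_s_at it also missed without either combination array (adjusted p = 0.0505).

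IL13 and IL10 passed in no contrast. IL13 read 6.78 and 5.09 in the combination, 5.15 and 4.90 with IRF5-4D, 5.14 and 4.99 with IKKβ(EE), and 4.77 and 5.28 in mock cells, so 1 combination array stood apart and the other lay within the range of the remaining groups. The difference between the combination and mock was 0.91 (SE 0.43, limma adjusted p = 0.361). It was 1.76 (adjusted p = 0.00494) without combination replicate 3 and 0.07 (adjusted p = 0.954) without combination replicate 1. IL10 read 3.52 and 3.38 in the combination, 3.77 and 4.11 with IRF5-4D, 3.72 and 3.67 with IKKβ(EE), and 3.84 and 3.61 in mock cells, close to the lower quartile of the arrays. Its combination arrays were the lowest, and the largest of its differences was -0.49 (SE 0.15) against IRF5-4D (adjusted p = 0.197).

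Counted over all 14 probe sets, 5 rose in the combination against mock (EBI3, IL12A, LIF and both of IL15), 0 fell and 9 did not pass, where 2.04% of all 41091 probe sets tested rose and 0.509% fell. The median difference of the 14 was 0.38, against -0.03 over all probe sets. With IKKβ(EE) 3 rose against mock (EBI3 and both of IL15), where 0.37% of all rose, and the medians were 0.03 and -0.02. With IRF5-4D 0 of 14 passed in limma, where 0.243% of all passed. Of the 14, 2 had an unadjusted p under 0.05 there (IL12A and IL23A 220054_at), and the medians were -0.001 and -0.01. These 3 comparisons share the mock arrays.

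The combination exceeded IRF5-4D alone on 5 of 14 probe sets, where 0.84% of all rose, and IKKβ(EE) alone on 3 of 14 (EBI3, IL12A and LIF), where 1.06% of all rose. IRF5-4D was below IKKβ(EE) on 3 of 14 (EBI3 and both of IL15), where 0.336% of all were lower. With 1 array left out the count ranged from 5 to 6 for the combination against mock. The count against IRF5-4D became 3 without IRF5-4D replicate 1 and 2 without IRF5-4D replicate 3, and that against IKKβ(EE) became 1 (IL12A) without IKKβ(EE) replicate 3. For IKKβ(EE) against mock it was 0 without IKKβ(EE) replicate 1 and 1 or 2 in the other 7 fits. For the single constructs against each other it was 0 without IKKβ(EE) replicate 1 or either IRF5-4D array and 1 without IKKβ(EE) replicate 3.

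The interaction asks whether the combination differs from the sum of both single effects on the log2 scale. It was 2.68 (SE 0.48) for EBI3, 2.62 (SE 0.47) for IL12A and 2.07 (SE 0.39) for LIF, each with all 4 terms taken from the same fit. The mock levels of these genes and the IRF5-4D level of EBI3 were not shown to lie above background. These sizes are therefore those of array signal. None of the 14 probe sets passed in limma (adjusted p = 0.137, 0.142 and 0.17 for these 3), where 0.0803% of all passed, and these 3 had an unadjusted p under 0.05. Their 95% intervals were 1.60 to 3.76, 1.55 to 3.69 and 1.19 to 2.96. Without combination replicate 3 these values were 3.22 (adjusted p = 0.016), 3.25 (adjusted p = 0.00343) and 2.61 (adjusted p = 0.00343). Without combination replicate 1 they had their lowest values, 2.14, 1.99 and 1.54, and in the 7 fits other than that without combination replicate 3 none passed, with adjusted p of up to 0.501, 0.526 and 0.545. For IL15 the interaction read 0.32 (SE 0.19) on 205992_s_at and 0.43 (SE 0.20) on 217371_s_at.

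The combination arrays differed from each other in the same sense for several members. Array 1 exceeded array 3 by 1.07 for EBI3, 1.26 for IL12A, 1.06 for LIF and 1.69 for IL13, but by 0.16 and 0.04 on the IL15 probe sets. The IKBKB probe set 211027_s_at, chosen after its values were seen because it was the 1 of 3 that was high in cells given the construct, read 11.11 and 9.33 in the combination and 12.57 and 10.98 with IKKβ(EE), against 4.8 and 4.06 in mock cells. It was thus also higher on array 1 in both groups that received IKKβ(EE). EBI3 read 7.84 and 7.41 with IKKβ(EE) and 3.86 and 4.62 in mock cells, while IL12A read 6.05 and 6.02 with IKKβ(EE). Of 3 IRF5 probe sets, 205469_s_at read 8.0 and 7.82 in the combination and 7.15 and 7.25 with IRF5-4D, against 6.93 and 7.06 in mock cells. On 205468_s_at the values were 5.56 and 5.6 in the combination and 5.65 and 5.66 with IRF5-4D, against 5.36 and 4.82 in mock cells, and on 239412_at all arrays read between 4.03 and 4.58. The IRF5 probe sets thus did not order the combination and IRF5-4D alike. None of them rose with IRF5-4D alone as far as 211027_s_at did with IKKβ(EE), so they gave no clear reading of the IRF5-4D construct. Whether these probe sets detect that construct was not tested. Differences with IRF5-4D alone that did not pass carry this limit. The part of the construct levels in the gaps between arrays 1 and 3 was not tested.

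The receptor chains for these cytokines were described from a list of 15 genes, each by its probe set with the highest mean level. In the combination 6 of 15 rose against mock, 0 fell and 9 did not pass, with a median of 0.44 against -0.03 over all probe sets. The count of 6 was not kept in every fit without 1 array. Over all 19775 genes, each taken by the same rule, 2.52% rose in the combination, 0.293% with IRF5-4D and 0.47% with IKKβ(EE). IL10RA, the ligand-binding chain for IL10, read 6.99 and 6.36 in the combination, 3.99 and 3.69 with IRF5-4D, 4.12 and 4.15 with IKKβ(EE), and 4.13 and 4.10 in mock cells. It was 2.56 (SE 0.19), or 5.91-fold in array signal, above mock (limma adjusted p = 0.000176) and the 1 receptor chain to pass the interaction, at 2.82 (SE 0.27, adjusted p = 0.0139). Outside the combination its level may be background, and both sizes are therefore those of array signal only. IL15RA, which presents IL15, read 8.72 and 8.49 in the combination, 7.33 and 7.60 with IRF5-4D, 7.65 and 7.62 with IKKβ(EE), and 7.22 and 7.57 in mock cells, a rise of 1.21 (SE 0.16, adjusted p = 0.00434).

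IL4R, a chain of the IL13 receptor, rose by 1.47 (SE 0.13, limma adjusted p = 0.000462) in the combination and by 1.27 (SE 0.13, adjusted p = 0.00439) with IKKβ(EE). The gp130 gene IL6ST rose by 1.14 (SE 0.19, adjusted p = 0.0134) in the combination, and the common gamma chain IL2RG, part of the IL15 receptor, by 1.03 (SE 0.13). IL10RB, the second chain for IL10, rose by 0.68 (SE 0.14). Of the chains that bind the IL-12 family other than gp130, IL27RA read 1.12 (SE 0.34, adjusted p = 0.155) and did not pass. IL12RB1, IL12RB2 and IL23R read 0.06, 0.04 and -0.06. IL4R was the 1 of 15 that rose with IKKβ(EE), a count that was 0 without IKKβ(EE) replicate 3, and 0 of 15 passed with IRF5-4D in limma, with 0 at an unadjusted p under 0.05. The largest differences with IRF5-4D were those of IL27RA, at 0.39 (SE 0.34), and IL6ST, at 0.36 (SE 0.19).

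**Figure D3:**
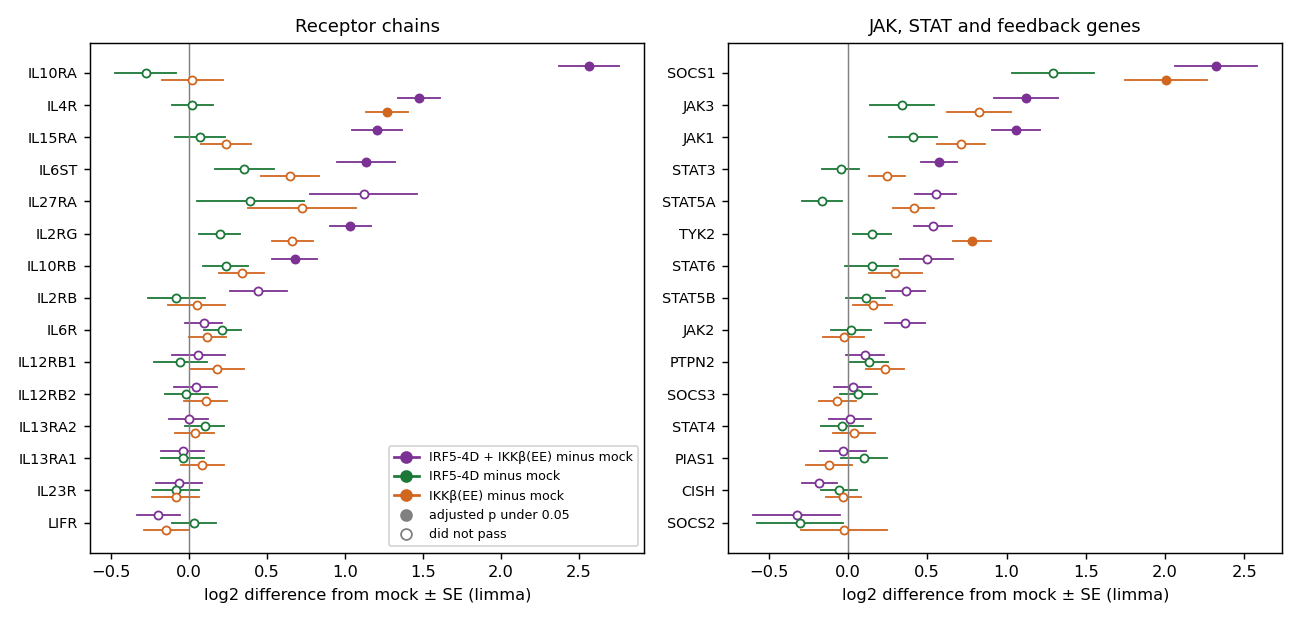
Log2 difference from mock with its SE (horizontal axis) for 15 receptor chains (left) and 15 JAK, STAT and feedback genes (right) in the combination, IRF5-4D and IKKβ(EE); filled points passed an adjusted p of 0.05. IL10RA at 2.56 in the combination stands apart from its values of -0.28 and 0.02 with the single constructs.

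Cytokine receptors signal through JAK kinases and STAT factors, which induce the SOCS inhibitors. Of 15 such genes measured from a list of 17, 4 rose in the combination against mock (2.52% of all genes rose), 0 fell and 11 did not pass, and the median was 0.36. SOCS1, a feedback inhibitor of JAK kinases, read 7.70 and 6.74 in the combination, 6.27 and 6.11 with IRF5-4D, 6.99 and 6.82 with IKKβ(EE), and 5.0 and 4.8 in mock cells. All 6 arrays with IRF5-4D, IKKβ(EE) or both lay above mock. SOCS1 rose by 2.32 (SE 0.26, limma adjusted p = 0.00156) in the combination and by 2.01 (SE 0.26, adjusted p = 0.0141) with IKKβ(EE), and read 1.29 (SE 0.26, adjusted p = 0.18) with IRF5-4D.

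The kinase genes JAK3 and JAK1 rose by 1.12 (SE 0.20) and 1.06 (SE 0.15) in the combination, and STAT3, the main STAT downstream of gp130, by 0.58 (SE 0.11, limma adjusted p = 0.0334). With IKKβ(EE) 2 of 15 rose, SOCS1 and the kinase gene TYK2 by 0.78 (SE 0.12, adjusted p = 0.0375). With IRF5-4D 0 of 15 passed in limma, with 2 at an unadjusted p under 0.05, SOCS1 and JAK1 (0.41, SE 0.15) having the largest differences. The count of 4 in the combination was lower in each of the 8 fits without 1 array. The count of 2 with IKKβ(EE) was 1 without either combination array or mock replicate 1, and 0 without any 1 of the other 5 arrays. The count with IRF5-4D was 1 without either combination array.

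Of 31 other interleukins and related cytokines measured from a list of 36, 1 rose in the combination against mock, a share close to the 2.52% of all genes that rose, so the count is no result about this list. It was IL1B, the inflammatory cytokine interleukin 1β, by 1.03 (SE 0.18, limma adjusted p = 0.0204). The median of the 31 was -0.03, equal to that over all probe sets at this precision. The count was 0 without combination replicate 1 or mock replicate 3 and 2 without combination replicate 3. Against mock 0 of 31 passed with IRF5-4D and 0 of 31 with IKKβ(EE) in limma, with 1 and 2 at an unadjusted p under 0.05. The largest differences were those of CTF1, at 0.37 (SE 0.13), and IL19, at 0.25 (SE 0.13), with IRF5-4D, and of IL16, at -0.52 (SE 0.24), and IL1B, at 0.51 (SE 0.18), with IKKβ(EE).

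The genes whose pattern over the 8 arrays was most like that of EBI3 were sought among 275 other genes with a range of at least 2 on the log2 scale. By Pearson's r these were BCL2A1 (0.99), an anti-apoptotic gene, the adhesion molecule ALCAM (0.978), the peptide transporter gene TAP1 (0.97), the chemokine CXCL10 (0.969) and TMEM120A (0.966). A second ranking used the size of the change from mock on the 6 arrays of the other groups. The nearest there were BCL2A1, at a mean gap of 0.56, the B cell surface protein gene MS4A1 at 0.69 and LAMP3 at 1.03. BCL2A1 read 5.19 above mock in the combination, -0.19 with IRF5-4D and 3.07 with IKKβ(EE), beside 6.22, 0.15 and 3.38 for EBI3. MS4A1 read 6.35, 1.59 and 3.15, and LAMP3 read 4.59, -0.14 and 4.54. Among the members the IL15 probe sets had an r of 0.973 and 0.984 with EBI3, LIF 0.785 and IL12A 0.752. All these r rest on the same 8 arrays in 4 groups.

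**Figure D4:**
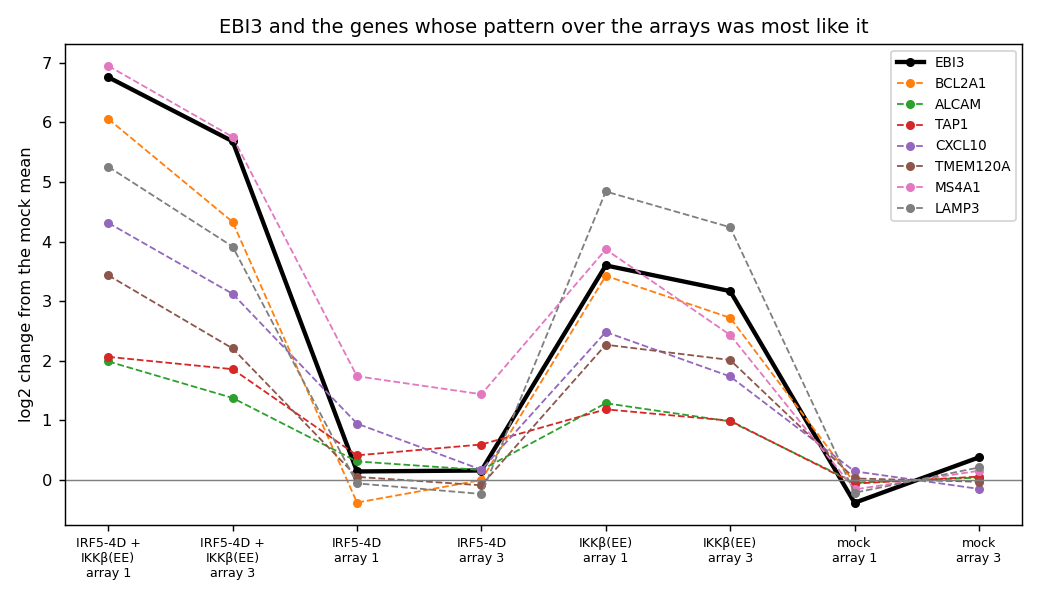
Log2 change from the mock mean on each of the 8 arrays (vertical axis) for EBI3 (thick black line) and the 7 genes closest to it by correlation or by size of change; lines join the values of a gene. EBI3 and BCL2A1 follow each other, at 6.22 and 5.19 on average in the combination and 3.38 and 3.07 with IKKβ(EE).

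The labelled cell type was checked on marker genes. Of 11 B lineage markers measured, 10 lay above the median level of all probe sets, with array means from 11.2 to 11.5, and 0 passed against mock in limma in the combination (3 at an unadjusted p under 0.05), with IRF5-4D (0) or with IKKβ(EE) (0). Of 10 T and NK cell markers 1 lay above that median, and of 9 myeloid markers 2 did. NKG7, a cytotoxic granule gene, was the 1 of 19 that rose in the combination, by 1.34 (SE 0.19). Over all genes, each by its highest-mean probe set, 2.52% rose in the combination, 0.293% with IRF5-4D and 0.47% with IKKβ(EE). Of 8 dendritic cell markers 4 rose in the combination (CCR7, LAMP3, CD83 and CD1C), 1 with IRF5-4D (CCR7) and 3 with IKKβ(EE) (CCR7, LAMP3 and CD83). The other 4, FLT3, CLEC4C, IL3RA and XCR1, passed in none of these comparisons, with values from -0.22 (CLEC4C) to 0.59 (IL3RA) in the combination and from -0.59 (FLT3) to 0.02 (XCR1) with IKKβ(EE). The median difference of the 8 from mock was 0.62 in the combination, -0.02 with IRF5-4D and -0.06 with IKKβ(EE). The mean level of these 8 was 7.16 to 7.56 in the combination, 6.08 to 6.2 with IRF5-4D and 6.81 to 6.87 with IKKβ(EE), against 5.70 to 5.76 in mock cells. All these markers were read in an established line, and their relation to the EBI3 and IL12A values was not tested. Across probe sets the correlation between duplicates was 0.994 to 0.996, and with 2 arrays a group the precision is low.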

How the data were processed

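Expression was measured in 8 samples of transfected Reh cells on U133 Plus 2.0 arrays. The authors deposited a log2 value for every probe set and array, made with RMA per the submitters' processing notes, with no version named there. RMA removes background, sets all arrays to the same distribution and combines the probes of each set, so a rise shared by most genes would not show. Of 54675 probe sets, 62 control probe sets and 13522 without exactly 1 symbol in the platform annotation of 2016 were left out.

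The 41091 others were fitted with limma 3.58.1 under R 4.3.3 (lmFit and eBayes, 4 group means, all 8 arrays, 4 residual and 5.24 prior degrees of freedom), in 7 contrasts. P values were Benjamini-Hochberg adjusted over all probe sets and called under 0.05, and intervals are 95% intervals of that fit. The method was tested on simulated data with independent errors, changes in the combination only and no effect shared by arrays of the same number. That test does not cover such an effect in these data. No filter on level was applied. P values measure the spread between arrays described as biological duplicates. Where 1 array was left out, the lone array of its group was assumed to vary like the others.

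The members and lists were chosen with earlier results of these data known. Each member is given in full. Up to 5 called genes of a list with the largest change are named, and likeness to EBI3 was ranked by Pearson's r and by mean gap; NKG7, the dendritic cell markers and other uncalled genes were named after their values were seen. Alternatives were other sets of probe sets, normalizations, variance models, a replicate block, a fit of only 2 groups, other thresholds and leaving out each array. Promoters come from the RefSeq table (GRCh38.p14), which held 7 of the 10 genes.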

Additional observations from a re-analysis of the deposited data

Results flagged for a closer look

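IL10RA was the 1 gene among the members, their receptor chains, the JAK, STAT and feedback genes and the other cytokines whose response to IRF5-4D differed by a test with and without IKKβ(EE). Its interaction was 2.82 (SE 0.27, limma adjusted p = 0.0139) on the log2 scale. IRF5-4D on top of IKKβ(EE) gave 2.54 (SE 0.19, adjusted p = 0.000294), and IRF5-4D against mock gave -0.28 (SE 0.19, adjusted p = 0.979). At 3.69 to 4.15 on the 6 arrays outside the combination, the gene lay close to the lower quartile of the arrays there, and such a level is not shown to lie above background.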

How the results depend on the processing

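The rise of EBI3, IL12A, LIF and both IL15 probe sets over mock in the combination kept its call in all alternatives run. Of 2388 values recomputed under alternatives, 2276 were labelled the same, 54 changed call and 58 moved further. The same means an equal direction and call, or an uncalled difference that changed sign by less than its error. For a count it means a change of at most 1.5 times. No called value changed sign, and 64 differences not called in either fit did. Among all alternatives but the leave-one-out fits, the count of member probe sets that passed changed by more than 1.5 times in 3 cases. With IKKβ(EE) it became 1 in a fit of only 2 groups and 1 when a 2-fold change was also required, and in the interaction it became 1 (IL12A, adjusted p = 0.034) with a replicate block.

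Leaving out each array in turn gave EBI3 differences of -0.23 to 0.53 for IRF5-4D against mock, 3.0 to 3.77 for IKKβ(EE) against mock, 2.3 to 3.37 for the combination against IKKβ(EE), -3.45 to -3.02 for IRF5-4D against IKKβ(EE) and 2.14 to 3.22 for the interaction. The counts of member probe sets that passed were 0 to 1 for IRF5-4D against mock, 0 to 2 for IKKβ(EE) against mock, 2 to 6 for the combination against IRF5-4D, 1 to 4 for the combination against IKKβ(EE), 0 to 3 for IRF5-4D against IKKβ(EE) and 0 to 3 for the interaction. With the replicate block 1639 of all probe sets passed in the combination against mock, and 1049 without it. The deviations of arrays with the same number correlated between -0.06 and 0.33 over the 6 pairs of groups, and the labels do not say what the number stands for. With 2 arrays a group, and levels near the lower quartile of the arrays (IL12B, IL6 and IL10), small changes could not be resolved.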
